A study of Mus musculus with 12 samples.

Results

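Ppp1cc, Ppp1r14b and Ppp2r2d encode subunits of the 2 main serine-threonine phosphatases of the cell, PP1 and PP2A. They were chosen as the rows of the deposited lists of differing m6A peaks that carry one of these 3 gene names, and they are 3 of the 633 genes listed in all. Mouse embryonic fibroblasts (MEFs), primary cells from C57BL/6 embryos per the study's methods, were compared at passage 9 (P9, senescent) and passage 3 (P3, young), both grown in serum-supplemented medium, with no further treatment given in the labels. Each passage had 3 MeRIP libraries, in which fragmented RNA was pulled down with an antibody against N6-methyladenosine (m6A), and 3 input libraries, 12 libraries in all. Replicates are numbered in the labels, and nothing there says whether they came from separate embryos or cultures. The lists give 1 fold and 1 p-value for each peak and transcript and no value per library, so none of the values can be set against replicate error. The fold is a linear ratio, read as P9 to P3, and a fold below 1 is called lower in P9 MEFs. The sources used here do not give whether the fold was taken relative to the input, and so to the amount of mRNA.

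PP1 and PP2A remove phosphate from serine and threonine residues of a large part of the proteome. A small set of catalytic subunits does the chemistry, and many regulatory subunits and inhibitors direct these enzymes to their substrates or hold them back. Both phosphatases act against the mitotic kinases at the exit from mitosis, and PP1 bound to a myosin-targeting subunit relaxes the actomyosin fibres that are prominent in fibroblasts. Ppp1cc encodes the gamma isoform of the PP1 catalytic subunit. Ppp1r14b encodes a small inhibitor of PP1 that is active when phosphorylated by protein kinase C. Ppp2r2d encodes a regulatory B-type subunit of PP2A, known from Xenopus extracts for its part in the timing of mitosis. In mRNA, m6A is most common near the stop codon and in the 3′ UTR.

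The first bases of the Ppp1r14b site are shown because it alone of the 3 began inside the short stretch after the annotated start that the RefSeq promoter table covers. In Ppp1r14b the peak began 30 nt after the start of the gene in RefSeq (GRCm38.p6), at chr19:6975068-6975097 on the plus strand, where the 20 bases inside the peak are in capitals.
Ppp1r14b peak start: cccgggggctCCGCATGCTGCAGCTGCCCC
The 100 bases just before the annotated start are shown for all 3 genes as a description, with each CG pair in capitals. A link between these bases and the listed peaks was not tested. The bases lie on the plus strand of GRCm38.p6, at chr5:122158175-122158274 for Ppp1cc, chr19:6974948-6975047 for Ppp1r14b and chr7:138846259-138846358 for Ppp2r2d. For Ppp1cc they lie inside the RefSeq gene span, which begins at 122154967, as do the 250 bases counted below. The span of Ppp2r2d begins at 138846350, so the last bases shown lie inside it. Ppp2r2d had 2 windows, and the one furthest 5′ was used.
Ppp1cc: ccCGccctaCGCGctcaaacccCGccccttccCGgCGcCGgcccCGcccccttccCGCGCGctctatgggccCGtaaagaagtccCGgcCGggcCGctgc
Ppp1r14b: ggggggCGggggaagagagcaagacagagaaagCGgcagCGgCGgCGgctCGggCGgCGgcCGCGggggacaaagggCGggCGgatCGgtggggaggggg
Ppp2r2d: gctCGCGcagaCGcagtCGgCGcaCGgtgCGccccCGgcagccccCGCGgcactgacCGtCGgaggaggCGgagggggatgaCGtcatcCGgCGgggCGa
Over the 250 bases before the start, G and C made up 72% in Ppp1cc, 66.8% in Ppp1r14b and 65.6% in Ppp2r2d, against a median of 55.2% over 17492 protein-coding genes with a RefSeq window (interquartile range 46.8% to 63.6%). All 3 lay above the interquartile range of the protein-coding genes. The median was 66.8% over the 107 genes with a listed lower peak that had a window and 61.6% over 408 genes with a listed higher peak. Over 36 genes with a lower peak that touched the 5′ UTR it was 72.4%, so none of the members exceeded the median of these genes. CG pairs numbered 33 in Ppp1cc, 18 in Ppp1r14b and 28 in Ppp2r2d, against a median of 10 over the protein-coding genes 22 over the genes with a lower peak, 27 over those whose lower peak touched the 5′ UTR and 16 over the genes with a higher peak.

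The 3 genes held 5 of the 1043 listed peaks, which merged into 3 sites, 1 a gene. All 5 were lower in P9 MEFs. In these bulk libraries, a change in the share of the cells that carry a message and a change per cell cannot be told apart. Of the 633 listed genes, 131 had a lower peak (20.7%) and 122 had only lower peaks (19.3%). The direction of the members is part of the contrast by which they were listed, so it is given as a description and not as a test.

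The catalytic subunit gene Ppp1cc was listed for 2 transcripts. On ENSMUST00000102528.10 the fold was 0.638, which is 36.2% lower in P9 than in P3 MEFs, with a deposited p of 1.78e-06. On ENSMUST00000086294.10 the fold was 0.636 with a deposited p of 5.37e-06. The transcripts shared 236 of the 269 nt that either peak covered, so these are not independent measurements of 1 site. On the first transcript the peak spanned bases 122158397 to 122168224 of mm10 chromosome 5, and it was labelled 5′ UTR and coding on both. It consisted of 2 exon blocks of 219 and 50 nt, separated by an intron of 9559 nt. The first block began 122 nt after the start that the RefSeq promoter table gives for Ppp1cc, while the RefSeq gene span itself begins further upstream, 3430 nt before the peak. The site thus crossed from one exon into the next and included the beginning of the coding sequence.

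The inhibitor gene Ppp1r14b had the lowest fold of the 3, 0.524, which is 47.6% lower in P9 than in P3 MEFs. Its deposited p of 1e-10 was the smallest of any lower gene. The single listed transcript, ENSMUST00000070850.6, is 919 nt long, and the peak filled 238 nt of it in 1 exon block, 25.9% of the transcript. The peak ran from 6975078 to 6975315 on chromosome 19, was labelled coding and 5′ UTR, and left 2009 nt to the end of the gene. The span of the next annotated gene on the 5′ side, Plcb3, came within 41 nt of the start of Ppp1r14b, and Plcb3 had no listed peak. The libraries were made with a stranded kit, and the sources used here do not give whether the counting used the strand.

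The PP2A subunit gene Ppp2r2d had the smallest change. Its listed folds were 0.663 on both ENSMUST00000041097.12 (deposited p of 0.00148) and ENSMUST00000155672.7 (deposited p of 0.00162), each 33.7% lower in P9 than in P3 MEFs. The peak lay on chromosome 7 from 138869728 to 138872960 on the first of these transcripts, in 3 exon blocks of 128, 113 and 87 nt with introns of 534 and 2371 nt between them. Its start lay 23378 nt into the gene span. The first transcript labels the site as coding alone, whereas the second, whose blocks were 136, 113 and 80 nt, labels it as coding and 5′ UTR, so the place of this site in the message depends on the transcript. The peaks of both transcripts shared 321 of 336 nt.

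**Figure D1:**
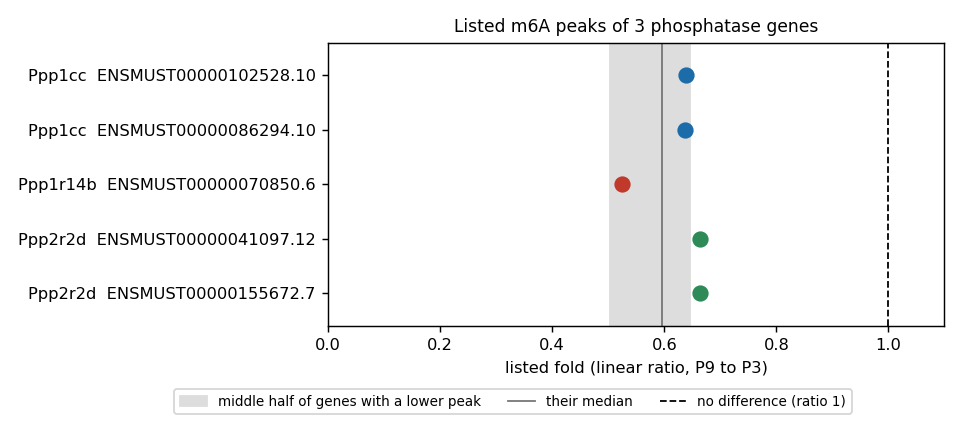
Listed folds (linear ratio of P9 to P3, horizontal axis) of the 5 peaks of Ppp1cc, Ppp1r14b and Ppp2r2d, 1 point for each listed transcript, with no error because no value per library is listed. The grey band is the interquartile range (0.503 to 0.645) and the grey line the median (0.595) of the 131 genes with a lower peak, the dashed line is a ratio of 1, and Ppp1r14b alone lies below the median.

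**Figure D2:**
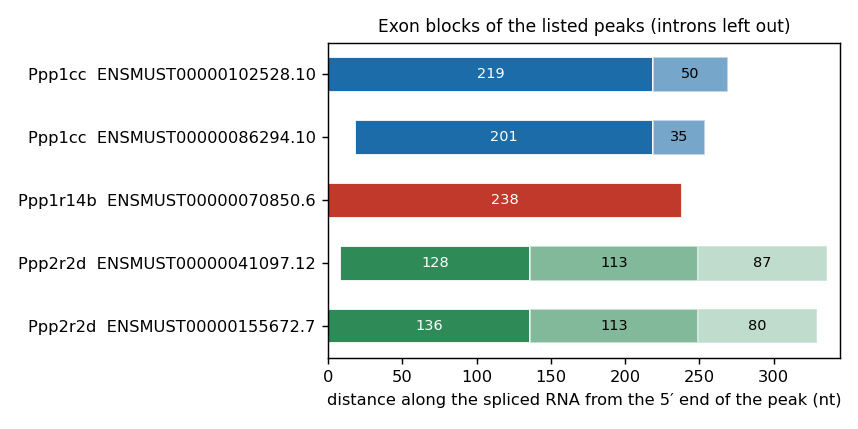
Exon blocks of the 5 listed peaks, to scale along the spliced RNA in nt from the 5′ end of the site, with the length of each block printed on it. The Ppp1cc site has 2 blocks, the Ppp1r14b site 1 and the Ppp2r2d site 3, and the transcripts of 1 gene differ only at the outer ends.

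The folds of the transcripts of 1 site were close, as in the rest of the lists, where the larger fold was at the median 1.02 times the smaller over 236 sites listed for several transcripts. All 1043 folds were powers of 2 whose exponent had at most 3 significant digits, and all p-values were powers of 10 rounded in the same manner (within a relative tolerance of 5e-06). The log2 fold was -0.649 and -0.653 for Ppp1cc, -0.933 for Ppp1r14b, and -0.594 and -0.592 for Ppp2r2d. Equal folds in different genes are values that share a step of this rounding. An example is a log2 fold of -0.592 in Ppp2r2d on ENSMUST00000155672.7 and on 1 transcript of Ppp2r2a. The fold of Ppp2r2d on ENSMUST00000041097.12 is also printed as 0.663 but lay on another step (log2 fold -0.594).

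By the size of the fold the members were not extreme, while by p-value Ppp1r14b and Ppp1cc stood near the top of the list. For each gene the transcript with the smallest p was taken, and rank 1 was the largest change. Among the 131 genes with a lower peak, Ppp1r14b ranked 40 by fold and 1 by p. Ppp1cc ranked 92 by fold and 4 by p. Ppp2r2d ranked 125 by fold and 28 by p. The lower gene with the next smallest p after Ppp1r14b was Selenot (2.45e-09, fold 0.657), followed by Lix1l (1.66e-07, fold 0.559) and then Ppp1cc. Among all 633 listed genes of either direction, the ranks by p were 2 for Ppp1r14b, 7 for Ppp1cc and 83 for Ppp2r2d, and the ranks by size of change were 208, 481 and 604 in the same order. The median fold of the 131 lower genes was 0.595 (interquartile range 0.503 to 0.645), so Ppp1r14b lay below the median, Ppp1cc inside the upper part of this range and Ppp2r2d above it. The median p of these genes was 0.0107.

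Ppp2r2d lay close to the edge of the list. Over all listed transcripts, not only the one with the smallest p of each gene, the largest lower folds were 0.667 in Pacs2 and Cul2, followed by 0.666 in Hdgfl2, Tbk1, Plpbp and Cspp1. Peaks with a smaller change are not listed, so no value from just outside the edge can be given. The largest p listed was 0.0490. The p-values of the 3 members were well inside this limit.

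**Figure D3:**
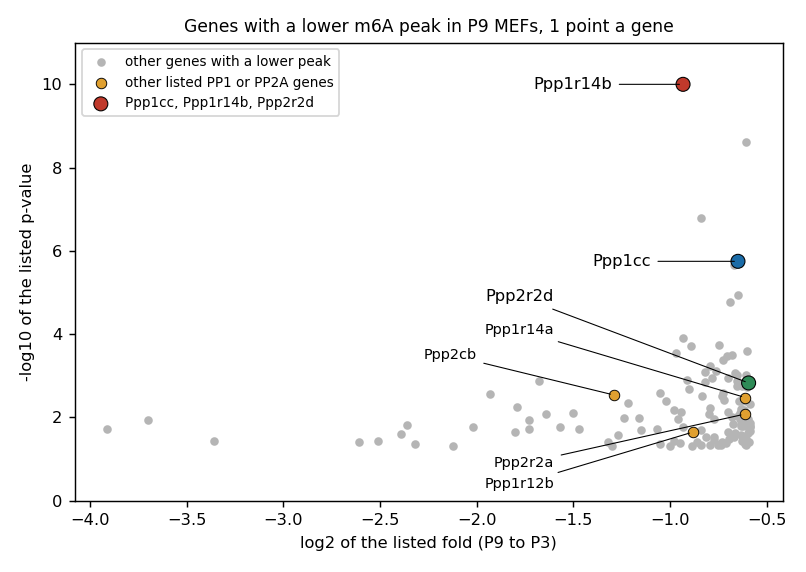
The 131 genes with a lower m6A peak in P9 MEFs, 1 point a gene, with the log2 of the listed fold (P9 to P3) on the horizontal axis and -log10 of the listed p-value on the vertical axis. Ppp1r14b is the highest point (deposited p of 1e-10) and Ppp1cc the fourth highest (deposited p of 1.78e-06). Ppp2r2d lies near the right edge (fold 0.663) and ranks 28 of the 131 by p.

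The genes closest to each member in fold and place were picked by the absolute difference in log2 fold among lower genes whose peak has the same labels. For Ppp1cc these were Cul3, the scaffold of a ubiquitin ligase (fold 0.642), the nuclear export receptor gene Xpo1 (0.643) and the RNA-binding protein gene Fxr2 (0.632), all within 0.013 log2 units. For Ppp1r14b they were the ubiquitin ligase gene Smurf2 (0.507), the adhesion gene Nectin3 (0.493) and Lix1l (0.559), within 0.094 log2 units. For Ppp2r2d on its coding label they were Cspp1 (0.663), Bin3 (0.662) and Hdgfl2 (0.661), within 0.004 log2 units. In the order of folds irrespective of place, Ppp1cc was tied with the scaffold gene Homer3 (0.638) and was followed by Plpbp (0.640). Ppp1r14b was tied with 1 other gene. Ppp2r2d stood between Bin3 and Cspp1 in this order as well. These likenesses rest on 1 listed value a gene.

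The listed places of the members overlapped. The peaks of Ppp1cc and Ppp1r14b, and that of Ppp2r2d on 1 of its transcripts, touched the 5′ UTR together with the coding sequence. Of the 131 genes with a lower peak, 44 (33.6%) had a peak that touched the 5′ UTR and 23 (17.6%) had one that covered 5′ UTR and coding sequence, against 29 (5.68%) and 18 (3.52%) of the 511 genes with a higher peak. Among the 22 lower genes whose peak with the smallest p carried both labels, Ppp1r14b ranked 5 and Ppp1cc ranked 16 by fold. Among the 55 with the coding label alone, Ppp2r2d ranked 51. By length the sites were ordinary, with 269 nt in Ppp1cc, 238 nt in Ppp1r14b and 328 nt in Ppp2r2d, against a median of 239 nt over the lower genes (interquartile range 180 to 328 nt). Their transcripts were shorter than the median of 3310 nt, at 2384, 919 and 2081 nt, so the peaks filled 11.3%, 25.9% and 15.8% of them, against a median of 7.8%.

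The other subunits of these enzymes were read from 7 groups of serine-threonine phosphatase genes with 129 genes, fixed with the members in view. Of these, 12 (9.3%) had a listed peak, a share raised by the 3 members, which were chosen from the lists. Over RefSeq, 624 of 21900 protein-coding genes (2.85%) had a listed peak. This background includes genes that are not expressed in MEFs, and the lists hold no gene that was tested without a difference, so the shares are not an enrichment. A lower peak was listed for 7 of the 12 genes, 3 of which are the members, and a higher peak for 5. Without the members, 4 of the 9 remaining genes had a lower and 5 a higher peak. Over all listed genes, 20.7% had a lower and 80.7% a higher peak, and over the protein-coding genes in RefSeq these shares were 0.584% and 2.31%. The median log2 fold was 0.597 over the 9 genes that are not members and 0.721 over all 633 listed genes. With the members, which are lower by choice, the median of the 12 genes was -0.603.

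All 7 lower genes belonged to PP1 or PP2A, whose groups hold 80 of the 129 genes, and 3 of the 7 are the members. The group counts that follow stand beside 0.584% of RefSeq protein-coding genes with a lower and 2.31% with a higher peak. They include the members and are not an enrichment. Among PP1 catalytic genes, Ppp1cc was listed and Ppp1ca and Ppp1cb were not. Among 47 PP1 regulatory genes, 3 were lower and 1 was higher. Besides Ppp1r14b, the lower ones were its paralogue Ppp1r14a, an inhibitor of myosin phosphatase, with a fold of 0.654 (deposited p of 0.00331) in a coding peak that began 46 nt into the gene, and Ppp1r12b, a myosin-targeting subunit, with a fold of 0.543 (deposited p of 0.0224) in the 3′ UTR. The higher one was Phactr2, which encodes a regulator that binds PP1 and actin, with a fold of 2.08 (deposited p of 0.0363) in the 3′ UTR.

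Among 19 PP2A subunit genes, 3 were lower, the member Ppp2r2d included, and 1 was higher. Over RefSeq protein-coding genes, 0.584% had a lower and 2.31% a higher peak. The catalytic subunit gene Ppp2cb had the lowest fold of all 12 genes, 0.409 (deposited p of 0.00288), in a 5′ UTR peak of chromosome 8 from 33599805 to 33599895. Ppp2r2a, a paralogue of Ppp2r2d, had folds of 0.653 (deposited p of 0.00832) and 0.663 (deposited p of 0.0120) on 2 transcripts at 1 site in the 5′ UTR, and the site began 125 and 117 nt into the gene. Ppp2r3a, a B-type subunit of another family, had a higher coding peak with a fold of 1.51 (deposited p of 0.00575). The listed folds of Ppp2r2d and Ppp2r2a thus lay between 0.653 and 0.663, while their sites differed in place, the first in exons far inside the gene span and the second near its 5′ end. Of the 7 lower genes, 5 had a peak that touched the 5′ UTR on a listed transcript, against 44 of all 131 lower genes (33.6%). The exceptions were Ppp1r14a and Ppp1r12b. These 5 genes include the 3 chosen members, and Ppp2r2d counts only through ENSMUST00000155672.7.

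Outside PP1 and PP2A, only the PPM family of metal-dependent phosphatases had listed genes, 3 of 20. All 3 were higher in P9 MEFs, but 80.7% of all listed genes had a higher peak, so this direction does not set the family apart. The 3 PPM genes were Ppm1a with a fold of 1.66 (deposited p of 0.00155), the mitochondrial phosphatase gene Pptc7 with 1.74 (deposited p of 0.0214), both in the 3′ UTR, and Phlpp1, a phosphatase of Akt, with 1.56 (deposited p of 0.00372) in coding sequence and 3′ UTR. None of 11 modulators of PP2A, 21 genes of the other PPP enzymes or 8 phosphatases of the RNA polymerase tail type had a listed peak. Of the protein-coding genes in RefSeq, 2.85% had one, so empty groups of these sizes say little.

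**Figure D4:**
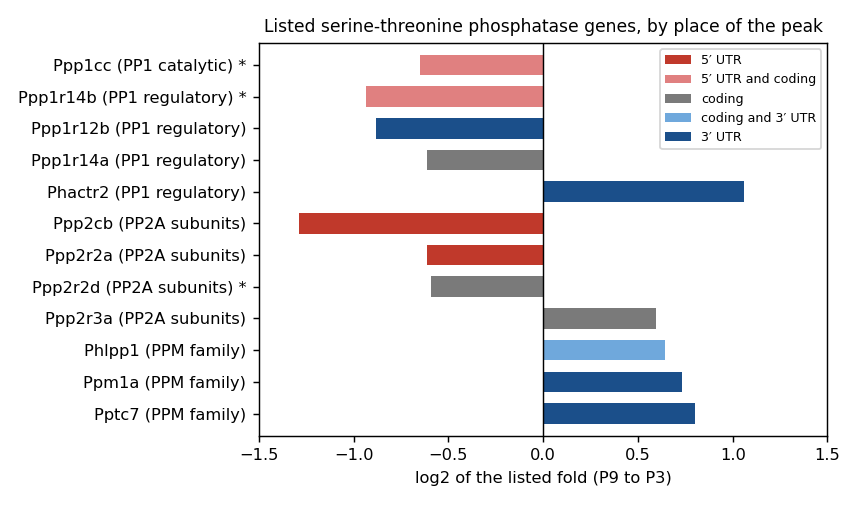
Log2 of the listed fold (P9 to P3, horizontal axis) of the 12 serine-threonine phosphatase genes with a listed peak, coloured by the place of the peak with the smallest p, with an asterisk at Ppp1cc, Ppp1r14b and Ppp2r2d. The 7 genes to the left of 0 are PP1 or PP2A genes and the 5 to the right are Phactr2, Ppp2r3a and 3 PPM genes. The PP1 and PP2A groups hold 80 of the 129 genes looked up, and the 3 members were chosen as lower.

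RefSeq holds further genes that are related to a member by name. Ppp1ccb on chromosome 7, from 119739910 to 119742244, has Ppp1cc among its older names, and Ppp1r14bl on chromosome 1, from 23100473 to 23102253, is named after Ppp1r14b. Neither had a listed peak. The sources used here do not give how reads that match more than 1 gene were assigned, and their part in the listed folds was not tested. The cell type could not be checked from these lists, since none of 10 fibroblast markers and none of 6 markers each of epithelium, endothelium, blood, neurons and muscle had a listed peak, and a listed peak gives no expression level.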

How the data were processed

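MeRIP and input libraries of P9 and P3 MEFs were grouped by their titles. The fold (ratio) of each peak is, as deposited by the authors, a linear ratio of the groups named Treatment and Control. The p-value is, as deposited by the authors, that of the same comparison, and the sources used here name neither the test nor any adjustment. Taking P9 as Treatment rests on the 2 tables holding as many peaks as the paper states for P9 over P3. The build is mm10 per the labels, and for the aligner and the peak caller, the names were not given in the sources used here. Starts in the deposited tables count from 0 and were turned to count from 1. Depth per library is unknown, and no count could be refitted.

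The members and gene lists were chosen with earlier results of these data known. Each gene took the value of its transcript with the smallest p. Peaks of 1 direction and strand whose exon blocks overlapped or touched were merged into sites. No test was made, because the members were chosen from the contrast itself. Named genes were the members, every listed gene of the lists, the 3 lower genes closest to a member in fold and place, and its neighbours by fold. Selenot, Pacs2, Cul2 and Tbk1 were named after their values were seen. Plcb3 was named for its position, Ppp1ccb and Ppp1r14bl for their names, and Ppp1ca and Ppp1cb as PP1 catalytic genes without a listed peak. The neighbours of Ppp1r14b by fold are not reported here. Of the 633 listed symbols, 626 matched RefSeq (GRCm38.p6), from which gene spans and sequences came. Ranks and merging were tested on simulated data. Alternatives changed the transcript, the unit ranked and the thresholds. Python 3.11.15, numpy 2.4.6, pandas 2.3.3 and matplotlib 3.10.9 were used.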

Additional observations from a re-analysis of the deposited data

How the results depend on the processing

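The listed folds of Ppp1cc and Ppp2r2d moved by no more than the median spread between transcripts of 1 site when another transcript was taken. The other choices were the transcript with the largest change or the largest p. For each gene the peaks of the transcripts overlapped for the most part, so this is no independent check. Ppp1r14b has 1 listed transcript, so its fold could not move. The ranks of all 3 genes by fold among merged sites, and with genes ranked by the transcript with the largest change, were those given for genes. Ranked among the 203 listed lower peaks, Ppp1r14b stood at 63. Among genes with a peak in the same place, the ranks were 16 of 22 for Ppp1cc, 5 of 22 for Ppp1r14b and 51 of 55 for Ppp2r2d. Among the 62 lower genes with a p of at most 0.01 they were 44, 13 and 61. The number of units ranked differs between these settings, and the relative position of Ppp1r14b moved as well. It stood at 40 of 131 among all lower genes and at 13 of the 62 with a p of at most 0.01. Genes with a lower peak numbered 62 at a p of at most 0.01 and 32 at a change of at least 2-fold, and genes with a higher peak 168 and 143. Of the 12 listed phosphatase genes, 9 (6 lower, the 3 members included, and 3 higher) had a p of at most 0.01, and 2 had a change of at least 2-fold, Ppp2cb lower and Phactr2 higher, so none of the 3 members reached 2-fold. No paired analysis was possible because the deposited tables hold no value per library, and for the same reason no replicate could be left out and the depth behind each fold is unknown.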

Other observations

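Of 26 dual-specificity phosphatase and related genes, which remove phosphate from tyrosine as well as from serine and threonine, 2 had a listed peak (7.69%), against 2.85% of the protein-coding genes in RefSeq. Dusp3 had sites in both directions within its 3′ UTR. The higher site, with folds of 1.67 to 1.71 over 4 transcripts, ended 2 nt from the 3′ end of the gene, and the lower site, with folds of 0.565 to 0.604 over 4 transcripts, lay further 5′, 3402 to 3429 nt from that end. Dusp16 had a higher coding peak with a fold of 1.65 (deposited p of 0.0204). Of 16 genes of mitotic entry and exit, the cyclin gene Ccnb2 (fold 1.76, deposited p of 0.00501) and the kinetochore gene Knl1, whose protein binds PP1 (fold 1.93, deposited p of 0.00933), had higher peaks, as did 80.7% of all listed genes. In a separate list of 19 myosin phosphatase pathway genes, among them the Rock kinases and the myosin light chains, none had a listed peak. This list leaves out Ppp1r12b and Ppp1r14a, which were counted among the PP1 regulatory genes and had lower peaks. Of the protein-coding genes in RefSeq, 2.85% had a listed peak, so a count of 0 in a list of this size says little.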
